A study of Mus musculus with 550 samples.

Results

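Wild-type embryoid bodies were compared between day 9 and day 3 of differentiation in 168 single cells, 79 of day 3 and 89 of day 9, out of 486 cells of the whole series that passed the same filter. Embryoid bodies (EBs) are aggregates that embryonic stem cells form in suspension once leukaemia inhibitory factor (LIF) is withdrawn. The cells were E14 mouse embryonic stem cells of the 129/Ola strain with the genotype WT, and both days share line, strain and genotype, so by label the groups differ in stage alone, EB_3Days against EB_9Days. The series also holds EBs of Dnmt3a -/- (3AKO) and Dnmt3b -/- (3BKO) cells at both days, used here only beside the wild type. Members were the cells labelled WT with at least 50000 reads, at least 2000 detected genes and at most 50% of reads from mitochondrially encoded (mt-) genes, which kept 79 of 91 cells at day 3 and 89 of 91 at day 9. Many EBs were pooled before dissociation and sorting. The titles place all day 3 WT cells on 1 plate and all day 9 WT cells on another, so each day is 1 sample, the day and the plate cannot be told apart, and no p-value is given. Each plate carries cells of both labelled batches (54 and 60 cells of batch 1, 25 and 29 of batch 2, at day 3 and day 9). The labels name no culture, so a value seen in both batches is not known to come from separate cultures.

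Embryonic stem cells leaving the naive state pass through a primed, epiblast-like state, in which the de novo methyltransferases DNMT3A and DNMT3B are abundant, before cells commit to ectoderm or to mesoderm and endoderm. POU5F1, SOX2 and NANOG are transcription factors that hold the pluripotent state. LIN28 proteins and the IGF2BP RNA-binding proteins mark early embryonic cells, which also make ribosomes at a high rate. Aggregates kept without LIF are used as a model of these steps because cells of the 3 germ layers can arise in them side by side.

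Day 9 cells were sequenced more deeply and held fewer genes. Reads per cell ran from 59738 through a median of 214366 to 811379 at day 3 and from 70903 through 363652 to 789545 at day 9. A median of 7267 genes was detected at day 3 and 5652 at day 9, and after every cell was thinned to 50000 reads the medians were 5525 and 4507. The median share of mt- reads was 5.82% at day 3 and 4.14% at day 9, and in batch 2 alone it was 13.5% and 9.18%. The 50 genes with most reads took a median of 30.4% of a day 3 cell's reads and 20.97% of a day 9 cell's. What sets the lower gene number at day 9 was not tested. Reads carry no molecular identifiers, so all intervals below cover counting error only.

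**Figure D1:**
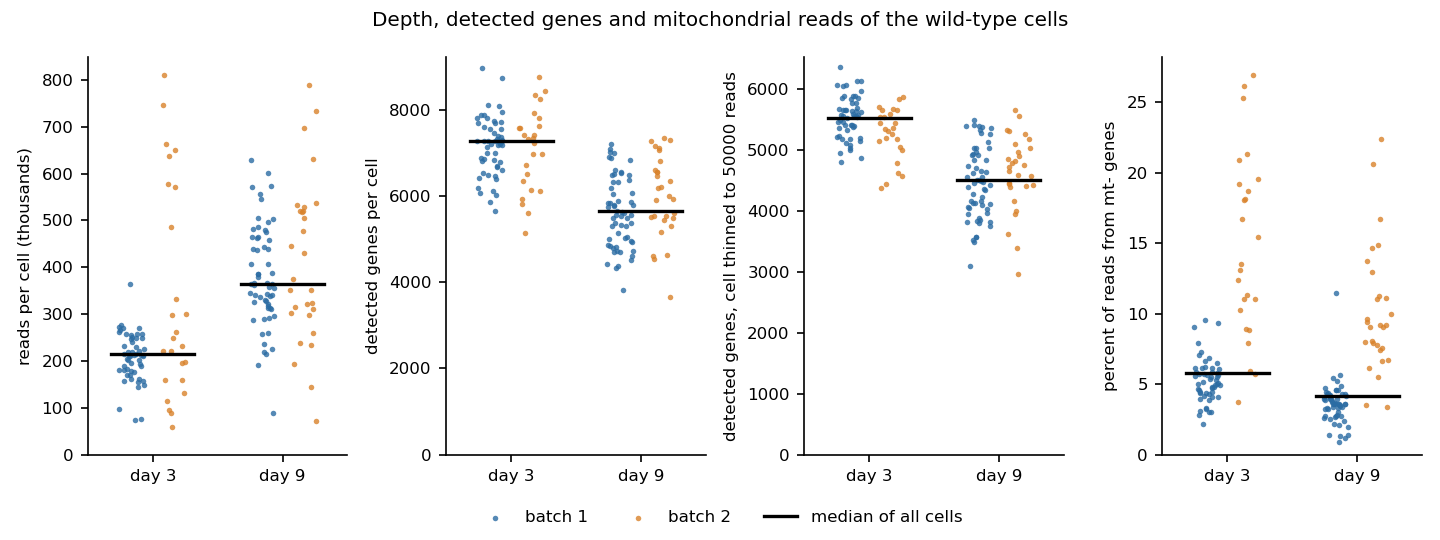
Reads per cell, detected genes at each cell's own depth, detected genes after thinning to 50000 reads, and percent of reads from mt- genes, for each kept wild-type cell (points, coloured by batch) with the median of each day (bar). Day 9 cells have more reads (median 363652 against 214366) and fewer genes (5652 against 7267, or 4507 against 5525 thinned), and batch 2 has the higher mt- shares.

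To compare the days despite this, reads were summed over the cells of each day and batch, turned into CPM (reads of a gene in each 1e6 reads of the sum), and rescaled so that the median ratio over genes detected in at least 20% of the cells on both days was 1. Levels below are in these scaled CPM, and a log2 ratio is log2(day 9 + 1) minus log2(day 3 + 1). Shares of a cell's reads are given without this rescaling. The rescaling lowers day 9 against day 3 by 0.245 on the log2 scale, and by 0.233 and 0.275 in batches 1 and 2. Genes detected in 20% of the cells of either day in each batch numbered 10162. Of these, 275 (2.71%) were at least 2-fold higher and 419 (4.12%) at least 2-fold lower at day 9 in each batch, and these are the genes said below to rise or fall. Counts of risers and fallers in the gene lists below stand beside these shares. The lists overlap, so a gene can count in more than 1 of them. Another 88 genes (0.866%) passed 2-fold in both batches in opposite directions. Across genes the ratios of both batches had a Pearson correlation of 0.43, a description only, since the batches share plates and genes are not independent. The balance between the directions depended on the scaling. With totals in place of the robust factor the median of all 10162 genes moved from -0.04 to 0.19 on the log2 scale, and the calls became 533 higher and 223 lower. All 275 risers and 223 of the 419 fallers were among them, and no gene turned to the opposite direction. Of the 42 genes named below as falling, 17 did not pass 2-fold in each batch with that scaling, among them Pou5f1, Dnmt3a, Fgf4, Lin28a, Rrs1, Noc2l, Gapdh and Rps12, while all 35 named as rising did.

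**Figure D2:**
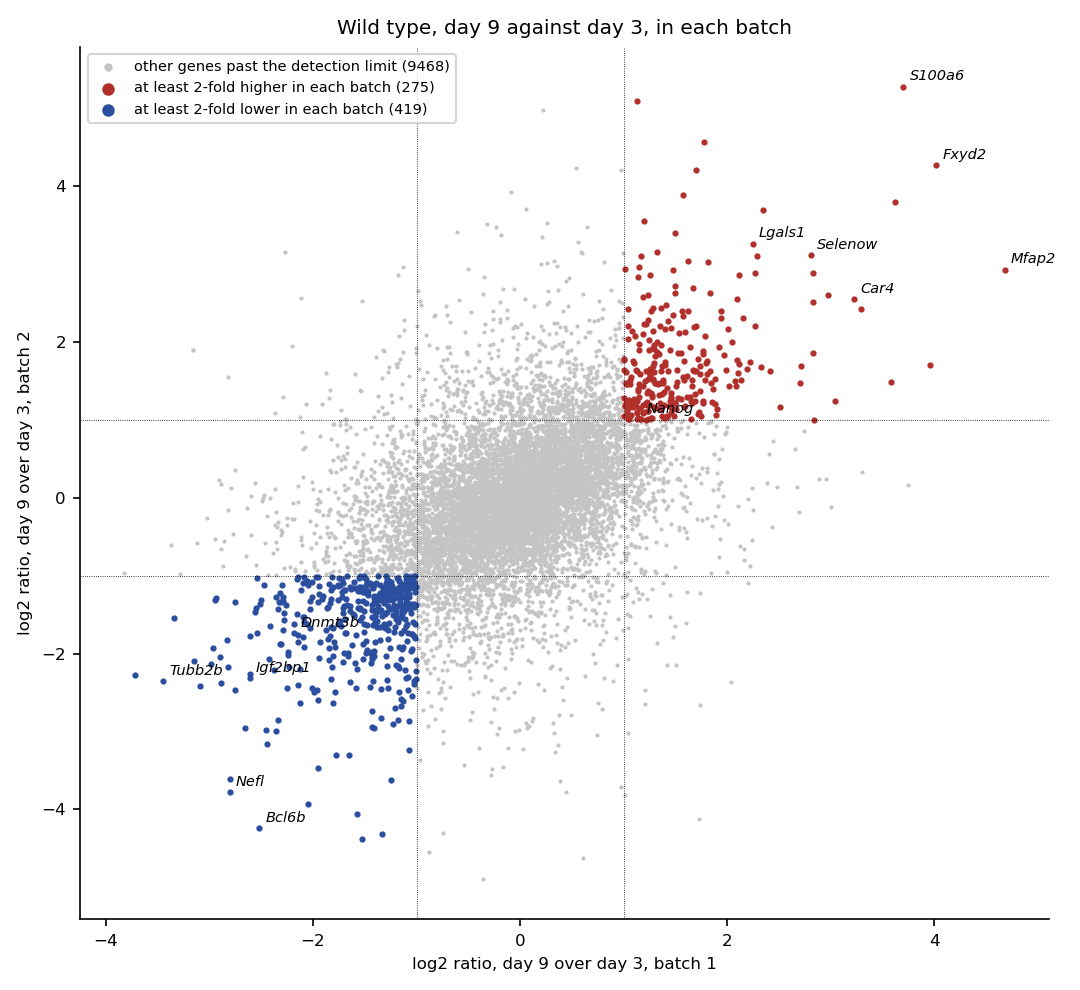
Log2 ratio of day 9 over day 3 in batch 1 (horizontal) and batch 2 (vertical), 1 point per gene past the detection limit, with dotted lines at 2-fold. The 275 risers (red) lie in the upper right and the 419 fallers (blue) in the lower left, and genes called neither way are grey.

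The 12 genes with the largest rises included S100a6, Fxyd2, Mfap2, Selenow and Lgals1. S100a6 (chr3:90612882-90624181, GRCm38), which encodes a small calcium-binding protein, stood at 3.37 and 1.17 at day 3 in batches 1 and 2 and at 55.9 and 83 at day 9, a log2 ratio of 4.27. With both batches summed the level was 2.43 (95% exact Poisson interval 1.77 to 3.26) at day 3 and 65.4 (62.8 to 68) at day 9, intervals narrower than the gap between the batches on either day. In thinned cells it was detected in 9 of 79 at day 3 (11.4%, 95% exact binomial interval 5.34 to 20.5%) and 53 of 89 at day 9 (59.6%, 48.6 to 69.8%), intervals that cover counting error within the 2 plates and not the spread between samples. Fxyd2 (chr9:45399669-45410278), a regulatory subunit of the sodium pump, went from 2.22 and 0 to 51.3 and 18.3. Mfap2 (chr4:141010418-141015984), a component of extracellular microfibrils, went from 1.54 and 2.73 to 64.3 and 27.4. Both were found in a minority of cells, with Fxyd2 detected in 21.3% and Mfap2 in 23.6% of thinned day 9 cells against 2.53% and 3.80% at day 3.

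Selenow (chr7:15917208-15922402), a small selenoprotein, and Lgals1 (chr15:78926725-78930465), the galactose-binding lectin galectin-1, rose in most cells. Selenow had a median of 13.4 per cell at day 3 (highest 131) and 103 at day 9 (highest 733), and 94.4% of day 9 cells were above the day 3 median. Lgals1 had medians of 30.7 and 134, with 91% of day 9 cells above the day 3 median. Car4 (carbonic anhydrase 4) rose from 12.2 and 18.2 to 123 and 111 but had a median of 0 on both days, with single cells as high as 499.8 at day 3 and 1442 at day 9. Wls, which carries Wnt proteins to the cell surface, rose with a log2 ratio of 2.75, and was detected in 15.2% of thinned cells at day 3 and 34.8% at day 9. The class I histocompatibility gene H2-Bl had a ratio of 2.79, Ly6g6e 2.97, the zinc finger and homeobox gene Zhx1 2.67, Pts of tetrahydrobiopterin synthesis 2.48, and the tetraspanin Tspan6 2.12. Ly6g6e shares exon bases with Ly6g6d, and Zhx1 with Gm29394, so their counts are uncertain. H2-Bl belongs to a family of near-identical genes, and since multi-mapped reads were left out, its count is uncertain too. With detection required in 40% of cells, Fxyd2, Mfap2, Wls, Car4, H2-Bl, Ly6g6e and Pts did not pass the detection limit. Slc7a6, an amino acid transporter, was the next gene after these 12.

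The 12 genes with the largest falls included Lmnb1, Igf2bp1, Npm3 and Tubb2b. Lmnb1 on chromosome 18, which encodes the nuclear lamina protein lamin B1, stood at 166 and 119 in batches 1 and 2 at day 3 and at 18.6 and 21.6 at day 9. Every day 3 cell had it (lowest 9.90, median 144, highest 458), and the day 9 median was 0, with 1.12% of day 9 cells above the day 3 median. Igf2bp1 (chr11:95957163-96005940), an embryonic mRNA-binding protein, fell from 348 and 299.7 to 56.1 and 59.4, and no day 9 cell reached the day 3 median of 326. Npm3 (chr19:45747734-45749591), a nucleolar histone chaperone, fell from 32.6 and 19.6 to 3.83 and 0.684 and from 60.8% to 7.87% of thinned cells. Its summed level was 27 (95% exact Poisson interval 24.7 to 29.5) at day 3 and 2.74 (2.24 to 3.32) at day 9. Tubb2b, a beta-tubulin of neural tissue, fell from 79.9 and 45 to 6.41 and 7.98.

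The neurofilament genes Nefl and Nefh had log2 ratios of -3.13 and -2.44, and the transcription factor genes Bcl6b and Etv4 of -2.95 and -2.62. Bcl6b had no read in the day 9 cells of batch 2 and stood at 2.02 in batch 1, against 16.3 and 17.9 at day 3. Msl2 of the MSL histone acetylation complex (-2.73), the mitochondrial transporter Abcb10 (-2.52) and Tbc1d24 (-2.58) were also among the 12. Across the 12 the log2 ratios ran from -3.13 for Nefl to -2.44 for Nefh. Nefl shares exon bases with Nefm, Npm3 with Gm15491, Abcb10 with Gm45890, Tbc1d24 with Ntn3, and Igf2bp1 with Gm29202 and Mir3063. The next gene was Swsap1.

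**Figure D3:**
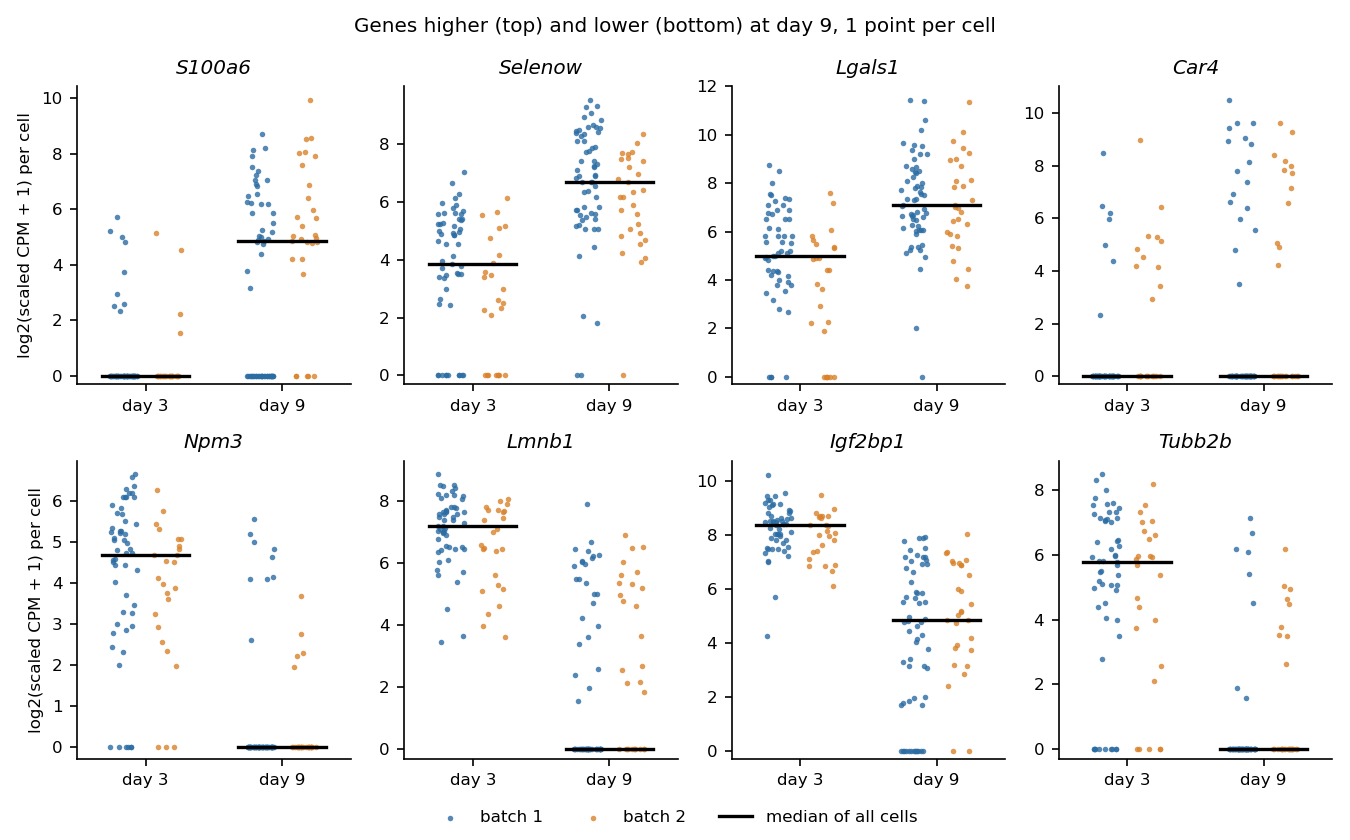
Scaled CPM per cell on a log2 scale (1 added) for 4 genes that rose (top) and 4 that fell (bottom), by day and batch (colours), with the median of each day (bar). Selenow and Lgals1 shift in most cells, Car4 rises in some cells with a median of 0 on both days, and few day 9 cells reach the day 3 medians of Lmnb1 and Igf2bp1.

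Counted per cell, the 12 risers and 12 fallers set most cells of the days apart with some overlap, which describes genes chosen for this difference. A thinned day 3 cell held a median of 2 of the 12 risers (range 0 to 7) and a day 9 cell 5 (1 to 10). For the 12 fallers the medians were 6 (2 to 10) and 2 (0 to 6). At least 5 risers were found in 7 of 79 day 3 cells and 60 of 89 day 9 cells.

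A ranking by cells rather than by summed reads gave a different set of leading genes. For each gene past the detection limit, all pairs of 1 day 9 and 1 day 3 cell were formed within each batch and the share of pairs with the higher level in the day 9 cell was taken. Over all 10162 genes the median share was 44.2% with both batches together, and the 5th and 95th percentiles were 28.4% and 61.03%. In each batch 15 genes had a share of at least 75% and 140 a share of at most 25%. The 10 genes at either end, ordered by the batch where the shift was smaller, were chosen after their values were seen. The lowest was Actb, which encodes the cytoskeletal beta-actin, with 1.23% and 5.66% in batches 1 and 2. Its level fell from 13995 and 8707 at day 3 to 3942 and 2744 at day 9, cells ranged from 2615 to 27249 at day 3 and from 362 to 10089 at day 9, and no day 9 cell was above the day 3 median of 12758.

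After Actb came the RNA-binding genes Hnrnpa2b1 (log2 ratio -1.35) and Ptbp1 (-1.77), Igf2bp1, the ribosomal protein gene Rps12 (-1.28), L1td1 (-1.96), Serbp1 (-0.89), the glycolytic gene Gapdh (-1.08), Npm3, and Odc1 (-1.89), which encodes the first enzyme of polyamine synthesis. Gapdh levels were 4929 and 2718 at day 3 and 2179 and 1329.8 at day 9. Actb and Gapdh, often used as reference genes, therefore did not hold a fixed share of reads between these days. Reads that mapped to several places were left out of the counts, so genes with many processed pseudogenes such as Actb, Gapdh and Rps12 are counted from part of their reads on both days.

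At the upper end stood Selenow with 86.05% and 89.7% of pairs, Ywhaz (log2 ratio 1.04), Lgals1, Gpx4 (2.10), Cst3 (1.71), Tmem59 (1.54), Skp1a (0.66), Slc7a6 (2.24), Hax1 (1.42) and Rpl22l1 (0.95). Gpx4, a selenoprotein that reduces lipid peroxides, went from 381 and 213 to 1659 and 701. Cst3, the secreted protease inhibitor cystatin C, went from 98.3 and 37 to 267 and 183. Ywhaz, Skp1a and Serbp1 did not pass 2-fold in both batches, so a shift of most cells and a 2-fold change of the sum picked out partly different genes.

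The pluripotency genes did not move as one. Of the 10 core pluripotency genes, Pou5f1 and L1td1 fell, Nanog rose and the other 7 did not pass 2-fold in both batches. Pou5f1 levels were 446 and 204 in batches 1 and 2 at day 3 and 88.6 and 86.6 at day 9 (log2 ratios -2.32 and -1.23). Every day 3 cell had a Pou5f1 read, and 1.12% of day 9 cells were above the day 3 median of 350.3. Pou5f1 shares exon bases with Gm19553. Nanog went the other way, from 245 and 224 to 548 and 453, with a cell median of 222 at day 3 and 342 at day 9 and a highest cell of 789.9 and 2972. Nanog did not pass 2-fold in both batches when its highest cell of each day was left out or when cells were thinned to 50000 reads before summing, and Pou5f1 did not with scaling by totals. Sox2, which also acts in neural cells, had ratios of -0.94 and -0.96 and did not pass the limit. The median log2 ratio over the core genes was -0.67, against -0.04 for all genes tested. Summed and not rescaled, the core genes took a median of 0.281% of a cell's reads at day 3 and 0.257% at day 9. By batch the medians were 0.298% and 0.290% in batch 1 and 0.245% and 0.232% in batch 2.

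The naive pluripotency genes had a median ratio of 0.16 over 15 genes, with Tcl1 rising (34.5 and 25 to 149 and 72) and Fgf4 falling (280.3 and 193 to 115 and 86). Zfp42, a marker of the naive state also called Rex1, had ratios of 0.66 and 0.57 and was found in fewer thinned cells at day 9 (77.5%) than at day 3 (89.9%) while its highest cell went from 2066 to 4726. Klf2 had ratios of 0.05 and 0.54. Summed over the list, the naive genes took a median of 0.901% of a cell's reads at day 3 and 0.668% at day 9, but by batch the medians were 1.06% and 0.752% in batch 1 and 0.482% and 0.490% in batch 2. The lower quartile was 0.463% at day 3 and 0.0686% at day 9, and it was lower at day 9 in batch 1 (0.733% and 0.357%) and in batch 2 (0.365% and 0.0564%).

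Of 14 primed epiblast genes, Etv4, Dnmt3a and Dnmt3b fell and Pim2, a kinase gene, rose, and the list's median was -0.75. Fgf5, the growth factor gene that marks primed cells, had ratios of opposite sign in the batches (0.55 and -1.32), as had Otx2 (0.56 and -0.38). In the Nodal pathway, which acts in the epiblast, the median over 14 genes was -0.39. Nodal had ratios of -0.50 and -0.58, and its inhibitors Lefty1 and Lefty2 of -0.79 and -2.33 and of -0.72 and -2.57. Gdf1 had no read.

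**Figure D4:**
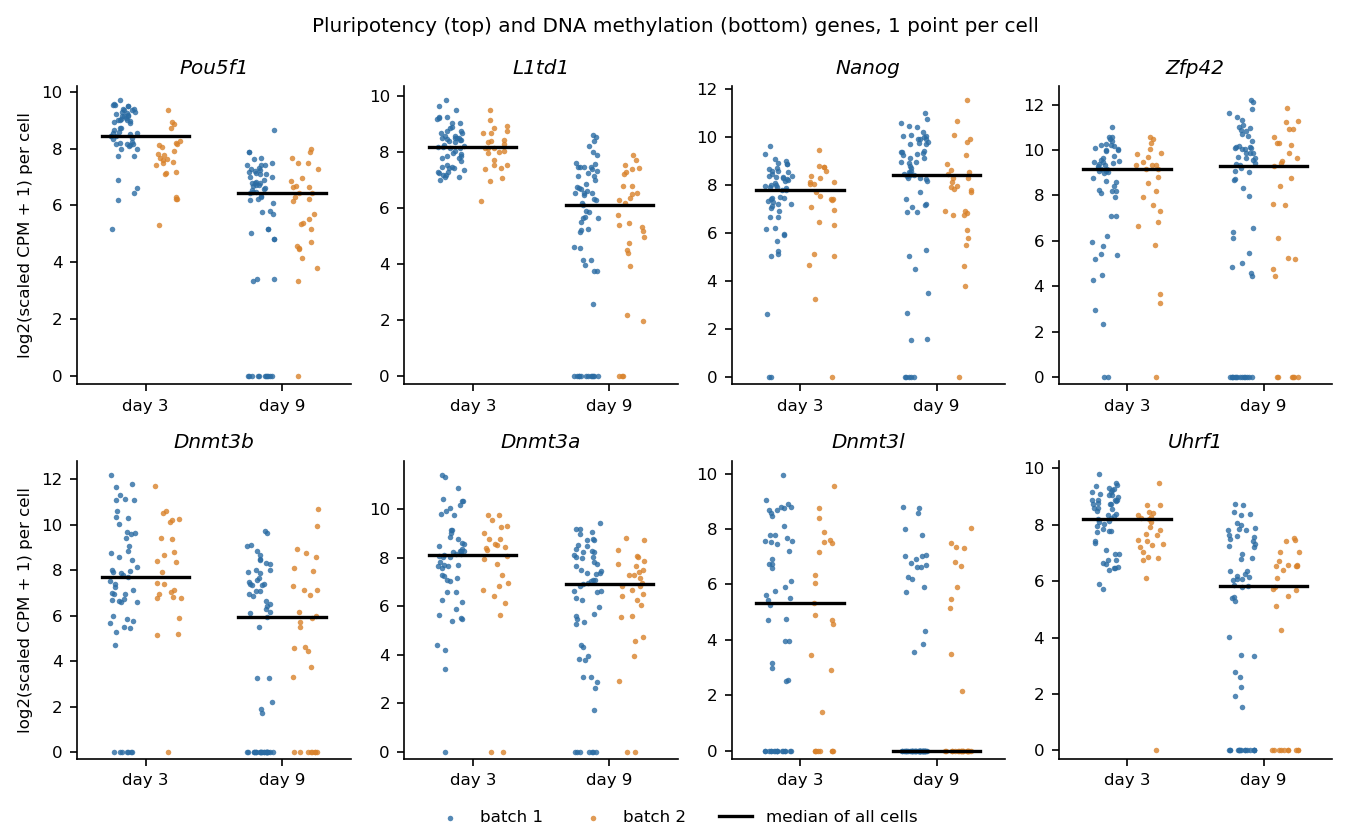
Scaled CPM per cell on a log2 scale (1 added) for 4 pluripotency genes (top) and 4 genes of DNA methylation (bottom), by day and batch (colours), with the median of each day (bar). Pou5f1, L1td1 and Uhrf1 shift downward in most cells, Nanog moves upward, and Dnmt3b, Dnmt3a and Dnmt3l keep a wide spread on both days.

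Of 11 tested genes of the DNA methylation machinery 4 fell and none rose, where 4.12% of all genes tested fell and 2.71% rose. Dnmt3a and Dnmt3b also count in the primed epiblast list and Uhrf1 in the S phase list. Dnmt3b (chr2:153649450-153687730), which sets new methylation, stood at 651 and 576 in batches 1 and 2 at day 3 and at 143 and 171 at day 9, a fold of 4.02 with both batches summed (617, 95% exact Poisson interval 606 to 629, against 153, 149 to 157). Cells ranged from 0 to 4724 at day 3 (median 205) and from 0 to 1661 at day 9 (median 61.1), so the groups overlap widely. Dnmt3a fell from 494 and 294 to 163 and 131, and Dnmt3l, the catalytically inactive cofactor of both, from 143 and 81.7 to 49.2 and 32.1. Uhrf1, which guides the maintenance enzyme to newly copied DNA, fell from 338 and 218 to 96.6 and 59.6, and 5.62% of day 9 cells were above its day 3 median. The maintenance enzyme gene Dnmt1 (ratios -0.64 and -0.64) and Tet1, which encodes an oxidase of 5-methylcytosine (-1.02 and -0.48), did not pass in both batches. The median over the list was -0.58. With scaling by totals Dnmt3a no longer passed in both batches. Dnmt3a shares exon bases with Dnmt3aos and Dnmt3l with Aire. Summed over the list the share of reads was a median of 0.190% per cell at day 3 and 0.102% at day 9, and 21 of 89 day 9 cells lay below the lowest day 3 cell.

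Because the series concerns methyltransferases of CG dinucleotides, the 250 bases before the RefSeq start of 2 risers and 2 fallers are shown (GRCm38.p6, in the direction of transcription, with CG in capitals). They are the reference strain's letters, not those of the 129/Ola line. No methylation was measured here.
S100a6 (chr3:90612644-90612893, plus strand): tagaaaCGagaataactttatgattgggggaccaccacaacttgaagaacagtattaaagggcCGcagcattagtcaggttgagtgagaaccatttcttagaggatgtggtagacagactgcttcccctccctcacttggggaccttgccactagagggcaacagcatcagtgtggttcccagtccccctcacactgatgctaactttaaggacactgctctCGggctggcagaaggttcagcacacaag
Selenow (chr7:15922372-15922621, minus strand): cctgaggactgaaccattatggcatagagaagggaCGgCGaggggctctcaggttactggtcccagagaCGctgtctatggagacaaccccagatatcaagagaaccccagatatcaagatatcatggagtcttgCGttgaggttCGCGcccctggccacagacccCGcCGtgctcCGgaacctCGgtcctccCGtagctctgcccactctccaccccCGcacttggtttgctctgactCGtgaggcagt
Npm3 (chr19:45749566-45749815, minus strand): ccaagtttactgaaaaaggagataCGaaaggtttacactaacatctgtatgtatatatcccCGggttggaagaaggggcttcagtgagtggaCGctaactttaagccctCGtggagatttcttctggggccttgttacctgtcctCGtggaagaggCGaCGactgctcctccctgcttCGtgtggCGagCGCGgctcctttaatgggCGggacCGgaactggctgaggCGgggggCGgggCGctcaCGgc
Dnmt3b (chr2:153649199-153649448, plus strand): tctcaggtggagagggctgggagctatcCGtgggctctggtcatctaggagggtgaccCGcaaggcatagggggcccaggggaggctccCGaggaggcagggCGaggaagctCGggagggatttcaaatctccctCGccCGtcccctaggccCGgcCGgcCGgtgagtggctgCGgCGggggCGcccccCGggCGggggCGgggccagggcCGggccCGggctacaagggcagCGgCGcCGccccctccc
They hold 3, 13, 17 and 21 CG in that order, where the median of 32851 promoters of the same length was 6, and 37.8%, 70.6%, 78.3% and 85.2% of those promoters held as many or fewer. CG is its own reverse complement, so both strands give the same count. The 4 genes were chosen after their values were seen, and no comparison of promoters between risers and fallers was made, because promoters were found for 78.2% of the risers, 74.5% of the fallers and 73.3% of all genes tested, under the 80% needed.

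Genes of ribosome production were lower at day 9 almost throughout. Of 26 genes of ribosome biogenesis, 24 had a ratio below 0, against 52.6% of all genes tested, and the list's median was -0.79 (-0.79 and -0.70 in batches 1 and 2). Past 2-fold in both batches were 3, all falling, where 4.12% of all genes tested fell. They were Npm3, Rrs1 (149 and 132 to 51.8 and 65.2) and Noc2l (48.2 and 26 to 21.2 and 11.3). Npm1, the abundant nucleolar chaperone, had ratios of -0.60 and -0.78 and Ncl, which encodes nucleolin, of -1.18 and -0.92. Cytosolic ribosomal protein genes had a median of -0.26 over 85 genes, with Rps12 falling, Rpl22l1 and Rpl10l rising, and Rpl7 and Rpl31 at -0.47 and -0.40. Many of these genes have pseudogenes, and their counts are uncertain.

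In the Lin28 and Myc list Lin28a, Odc1 and Igf2bp1 fell and none of 18 rose, with a median of -0.49. Over all genes tested 4.12% fell and 2.71% rose. Lin28a, which blocks let-7 microRNA maturation, went from 29.1 and 27.7 to 12.6 and 3.50, and its paralog Lin28b had ratios of opposite sign in the batches (-0.86 and 1.20). Lin28a shares exon bases with Gm13061. The S phase list had a median of -0.43, with Ccne1 (cyclin E1, 484 and 330.4 to 194 and 128) and Uhrf1 falling of 18 genes and Ccne2 at 0.09 and -1.46. None of 19 mitosis genes passed, and their median was -0.06, or 0.19 with scaling by totals. Cyclins A2 and B1 (Ccna2, Ccnb1) had ratios of -0.91 and -0.06. Among cyclin D and CDK inhibitor genes the inhibitor Cdkn1b fell (25.3 and 13 to 7.66 and 3.88), Ccnd1 had ratios of -0.49 and -1.27 and Ccnd2 of 1.88 and -0.24. That list's median was 0.17 with both batches and -0.18 and -0.24 in each.

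Genes of respiration and of the lysosome leaned upward. Of 75 nuclear-encoded respiratory chain genes 59 had a ratio above 0 (47.4% of all genes tested did), with a median of 0.38, but Cox6a1 of complex IV alone passed 2-fold in both batches (319 and 163 to 659.8 and 331). Cox5b and Ndufb3, first in the list, had ratios of 0.40 and 0.62. Without the rescaling, the list took a median of 2.35% of a cell's reads at day 3 and 2.99% at day 9. By batch the medians were 2.42% and 3.23% in batch 1 and 2.21% and 2.43% in batch 2. In batch 2 that rise is smaller than what the rescaling would take off. Of 19 lysosomal genes 14 had a ratio above 0, with a median of 0.56, and Lamp2, a membrane protein of the lysosome, rose (27.5 and 59.9 to 93.8 and 196). The protease genes Ctsa and Ctsb had ratios of 0.76 and 0.87 and of 0.58 and 0.96.

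In glycolysis and hypoxia Gapdh and Pdk1, a kinase that holds back pyruvate oxidation, fell, none of 21 rose, and the median was -0.35 (-0.51 and 0.04 in batches 1 and 2). The glucose transporter genes Slc2a1 and Slc2a3 had ratios of -0.16 and 0.72 and of -0.94 and 0.12. In cholesterol synthesis Hmgcs1 and Srebf2, the pathway's transcription factor, fell of 18 genes, with a median of -0.35. That median was -0.41 and -0.03 in batches 1 and 2. Per cell, the list's median share of reads went from 0.128% to 0.112% in batch 1. In batch 2 it went from 0.0807% to 0.165%. Hmgcs1 did not pass in both batches with either alternative cell filter, with scaling by totals, or with cells thinned before summing. Hmgcs1 shares exon bases with Gm48342. Among amino acid stress genes Sesn2 fell of 16, the median was 0.40, and the regulator Atf4 had ratios of 0.69 and 0.84. Of 16 p53 and apoptosis genes Mcl1, which protects from cell death, was among those that fell, Trp53 and Mdm2 had ratios of 0.46 and 0.39, and the median was 0.06, or -0.15 with cells thinned before summing.

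All 8 tested MHC and interferon genes had a ratio above 0 (47.4% of all genes tested did), with a median of 0.93. Of the 8, 2 rose, where 2.71% of all genes tested did. B2m, the light chain of class I molecules, went from 47.2 and 42.5 to 117 and 167, and Ifitm1, a membrane protein also expressed in early embryos, from 357 and 198 to 1404 and 707. H2-K1, a class I heavy chain gene, had ratios of 0.28 and 0.58. The list's share of reads was a median of 0.0731% per cell at day 3 and 0.236% at day 9, and 33 of 89 day 9 cells were above the highest day 3 cell. The other 8 of 16 members did not pass the detection limit, and Tap1, one of them, had ratios of -2.05 and 0.90.

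In the S100, annexin and galectin list 3 of 11 rose (S100a1, S100a6 and Lgals1), against 2.71% of all genes tested. None fell, and the median was 0.87. S100a1 went from 6.46 and 0.130 to 15.4 and 37.6. S100a4 had 1 read at day 3 and a level of 0.659 at day 9. Of 15 immediate early and heat shock genes Fos (12.8 and 34.1 to 32.6 and 100.1) and Egr1 (12.4 and 18.8 to 86.7 and 54.2) rose, with a median of 0.48. These genes also respond to dissociation and sorting, and that part was not tested. Fosb had no read at day 3 and a level of 1.08 at day 9.

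Signalling lists are small, and their calls are given beside 2.71% rising and 4.12% falling of all genes tested. In the BMP and Id list Id2, an inhibitor of helix-loop-helix factors, rose (63.7 and 51.6 to 215 and 135), while Id1 and Id3 had ratios of 1.81 and -0.26 and of 2.698 and -0.19 and so were higher in batch 1 alone. The list's median was 0.59 over 9 genes, and 24 of 89 day 9 cells were above the highest day 3 cell in its share of reads. Within batch 1 this held for 19 of 60 day 9 cells, and within batch 2 for 5 of 29. Bmp4 had ratios of -0.31 and -1.24, and Bmp2 had 1 read at day 3. The retinoic acid binding protein genes Crabp1 (10 and 5.59 to 30.3 and 16.7) and Crabp2 (5.01 and 1.30 to 12.8 and 25.9) rose, 2 of 6 in their list, whose median was 0.70, or 0.65 and -0.64 in batches 1 and 2. Rara had ratios of 0.06 and -1.43, and Rarb had 5 reads at day 3.

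In the Wnt list Tcf7l2 rose and the receptor gene Fzd5 fell of 17, with a median of -0.12, or 0.11 with scaling by totals, and Wnt3 had ratios of 1.43 and -1.32. In FGF and ERK signalling Fgf4 and Etv4 fell and Egr1 rose of 13, with a median of -0.17, or 0.05 with scaling by totals. None of 12 Polycomb genes passed. Their median was -0.16, or 0.08 with scaling by totals, with Ezh1 and Ezh2, the methyltransferases of the complex, at -0.33 and 0.30 and at -0.68 and -1.84. Wnt4 had no read.

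**Figure D5:**
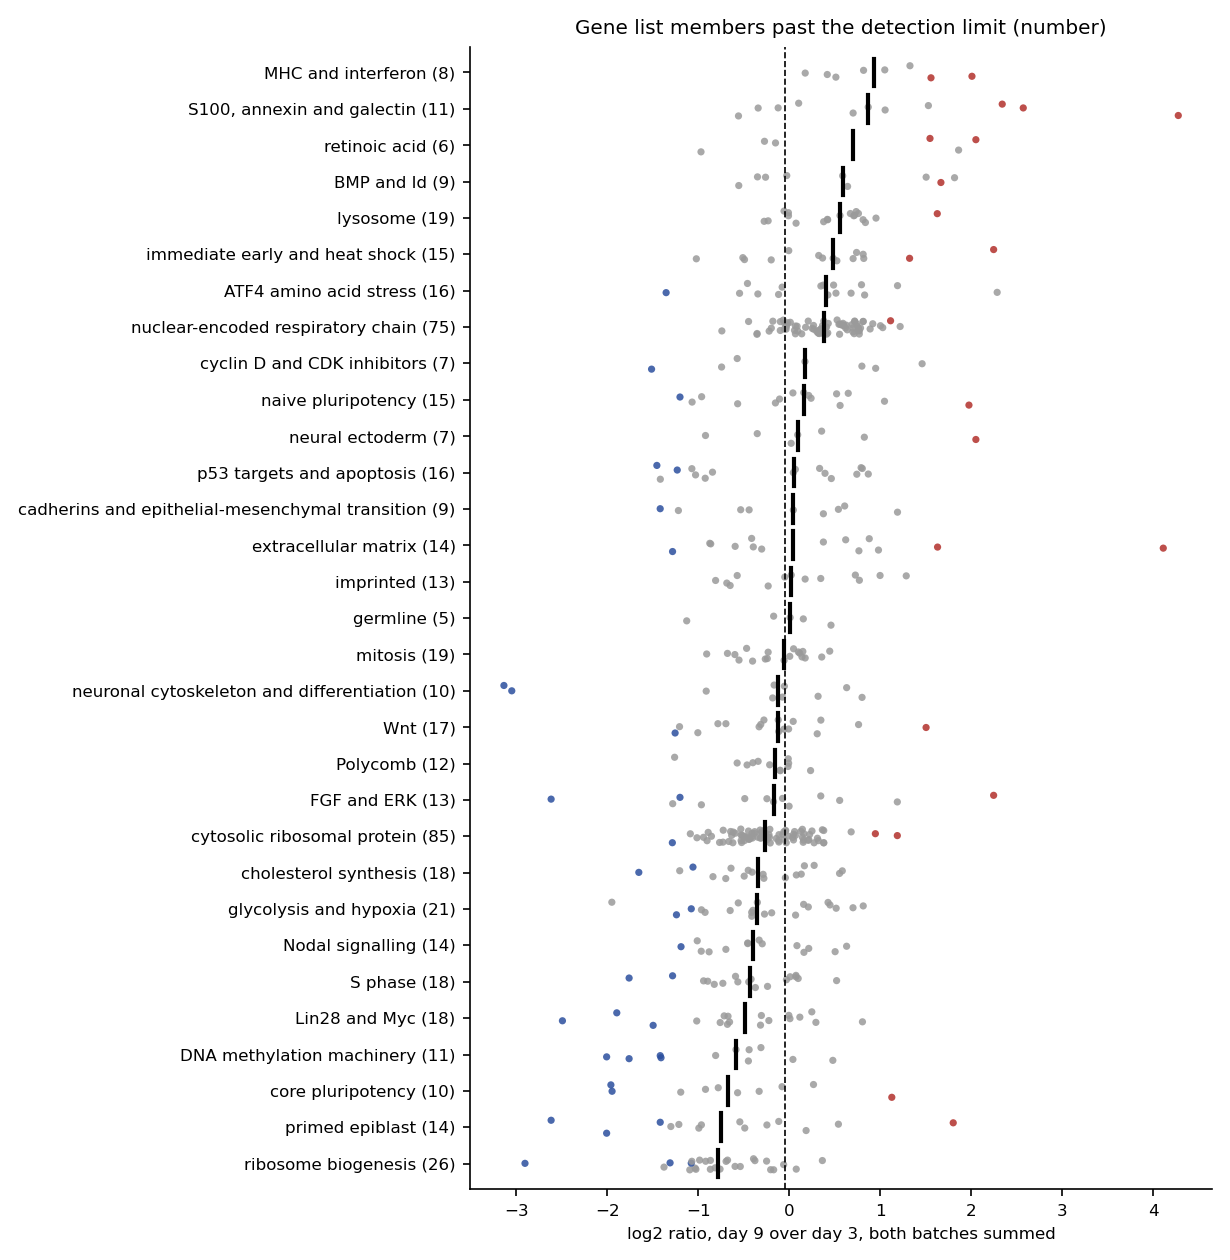
Log2 ratio of day 9 over day 3 (both batches summed) for each member past the detection limit of the lists with at least 5 such members, with the number of members in parentheses. Bars are list medians, from -0.79 for ribosome biogenesis to 0.93 for MHC and interferon, the dashed line is the median of all genes tested (-0.04), and red or blue points passed 2-fold in each batch.

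Genes of the germ layers were scarce on both days. Of 24 primitive streak and mesoderm genes Eomes alone passed the detection limit, with ratios of -0.60 and -1.37. T (Brachyury), the defining gene of the streak, had 4 reads at day 3 and 91 at day 9, and Mixl1 had none. Of 18 endoderm genes Apoe alone passed (ratio 0.36), and it is expressed in many cell types. Gata4 and Gata6, regulators of primitive and definitive endoderm, had levels of 3.66 and 0 and of 13.9 and 1.43 at day 3 and of 7.10 and 7.07 and of 0.726 and 4.94 at day 9 in batches 1 and 2. Of 7 neural ectoderm genes that passed Crabp2 rose, Sox1 had ratios of -0.40 and -0.27, and the median was 0.09, or -0.16 and 0.26 in batches 1 and 2.

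Epiblast markers were present in most cells on both days. At least 3 of 10 epiblast markers, each with 2 or more reads in a thinned cell, were found in 79 of 79 day 3 cells and 82 of 89 day 9 cells (92.1%, 95% exact binomial interval 84.5 to 96.8%). For neural ectoderm the numbers were 1 and 6 cells, for mesoderm 0 and 1, for endoderm 1 and 2, and for trophoblast and simple epithelium 1 and 2. No cell reached 3 for germ cells or for blood and endothelium on either day, which allows a share of up to 4.56% at day 3 and 4.06% at day 9 by the upper 95% bound. That bound is on cells with 3 markers detected at this depth, not on cells of the type, since all 3 germ cell markers were needed and Hbb-bh1 among the 5 of blood and endothelium had no read. Mixl1, Hes5, Afp, Cdx2, Elf5 and Hbb-bh1 had no read on either day. The summed epiblast markers ran from 1172 to 7664 (median 3783) at day 3 and from 0 to 13395 (median 3416) at day 9. The summed neural ectoderm markers had a median of 109.7 and a highest cell of 934 at day 3, and of 131 and 1492 at day 9. The summed endoderm markers had a median of 0 on both days, with a highest cell of 2814 at day 3 and 7148 at day 9, and those of trophoblast and simple epithelium likewise, with 332 and 4398. The part of these cells in the results above was not tested. Fewer expressing cells and less RNA per cell cannot be told apart from the summed levels alone.

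The calls of other lists are given beside 2.71% rising and 4.12% falling of all genes tested. The neuronal cytoskeleton list had 10 genes tested and that of trophoblast and simple epithelium 4. The neuronal cytoskeleton list held 2 of the large falls, Tubb2b and Nefl, while Tubb3 had ratios of 0.13 and -0.67 and Tubb2a of 1.09 and -0.02, and its median was -0.12, or 0.12 with scaling by totals. In trophoblast and simple epithelium Tfap2c rose (4.92 and 8.71 to 47.7 and 21.9) and Krt8 fell (25.8 and 8.58 to 10.1 and 3.50), and the list's median was 0.00. Among 9 cadherin and epithelial-mesenchymal transition genes Cdh3 (P-cadherin) fell from 52 and 27.4 to 19.12 and 6.84, with Cdh1 (E-cadherin) at -1.41 and -0.92, Cdh2 at 0.71 and 1.16 and a median of 0.05. In the extracellular matrix list Nid1 and Mfap2 rose and Col18a1 fell of 14, with a median of 0.04. Col1a1 and Col1a2 had 5 and 9 reads at day 3 and levels of 2.93 and 1.37 at day 9.

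None of 13 imprinted genes passed (median 0.02). H19 and Igf2, a linked imprinted pair, had 1 read each at day 3 and levels of 14.2 and 1.85 at day 9, below the detection limit. None of 5 germline genes passed (median 0.01), with Dazl at 0.71 and 1.39 and Ddx4 at 0.36 and -3.18. The medians of the neural ectoderm, cyclin D, trophoblast, cadherin, extracellular matrix, imprinted, germline and metallothionein lists took the other sign under 3 to 6 of 15 alternative settings. The 2 tested metallothionein genes Mt1 and Mt2 had ratios of -0.27 and 0.20 and of -0.38 and -0.16 and a median of -0.21.

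The same day comparison in the mutant EBs uses other cells and other plates. Of the wild-type risers also detected there, 38.1% to 41.6% were at least 2-fold higher at day 9 in each mutant label and batch, against 4.92% to 12.99% of all genes compared. Of the fallers 47.9% to 49.6% were at least 2-fold lower, against 10.0% to 20.4% of all genes. Taken the other way, the risers were 8.02% to 19.6% of the genes past 2-fold in a mutant, and the fallers 9.76% to 19.9%. Each mutant value has 1 batch to pass where the wild type had both, and day and plate cannot be told apart in the mutants either. In batch 2 the day 3 cells labelled 3AKO had a Dnmt3a level of 348 where those of batch 1 had 27.2. Day 3 cells labelled 3BKO had a Dnmt3a level of 13.8 in batch 2 and 613 in batch 1. Their level of Dnmt3b, the gene targeted in 3BKO, was 199.7 in batch 2 and 174 in batch 1. By title, day 3 cells of 3AKO in batch 2 shared a plate with those of 3BKO in batch 1. Those of 3AKO in batch 1 and 3BKO in batch 2 shared another. The doubt about the batch 2 labels thus rests on Dnmt3a, and the ranges that use them are given as deposited.

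By gene, the falls of Npm3, Lmnb1, Tubb2b and L1td1 and the rises of S100a6 and Selenow had the same direction and at least 2-fold size in both mutant labels and both batches. Npm3 had log2 ratios of -2.87 and -2.76 in batches 1 and 2 under the label 3AKO, and of -2.25 and -2.64 under the label 3BKO. S100a6 had ratios of 3.03 and 2.17 under 3AKO and of 4.03 and 4.35 under 3BKO. Car4 had ratios above 1 in 3AKO (3.56 and 3.96) and had ratios of -1.18 and 1.49 in 3BKO. For Car4 the batches disagree in sign under 3BKO. All batch 2 values of the mutants rest on day 3 cells whose label is in doubt. No difference between genotypes was tested.

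The transcripts of fallers were longer than those of risers. The longest GENCODE transcript had a median of 2248 bases in the risers (quartiles 1471 and 3634), 3783 in the fallers (2841 and 4809) and 3100 over all genes tested (1862 and 4571), with 98.8% or more of each group matched. Median GC content was 49.4%, 52.6% and 49.5%. Fallers were found in a median of 63.3% of day 3 and 24.7% of day 9 cells, and risers in 37.97% and 43.8%. All genes tested were found in a median of 65.8% of day 3 and 47.2% of day 9 cells. Full-length libraries give more reads to longer transcripts, and day 9 cells held fewer detected genes, so the part of length and detection in these calls was not tested.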

How the data were processed

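Single cells of wild-type EBs were sorted 1 to a well and sequenced by a modified Smart-seq2 protocol with single-end reads. Per the labels and the study's methods, the authors used FastQC 0.11.2, Trim Galore 0.5.0, STAR 2.7.1a and featureCounts 1.6.1 on GRCm38 with a GENCODE annotation, left out multi-mapped reads, and deposited whole-number counts per gene and cell, with no molecular identifiers. Use of strand is not given in the sources used here. Of the table's columns 26 carry no sample of these labels (8 empty wells and 18 mini-bulk) and were not used. No doublet caller was run.

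Counts were summed over cells per day and batch and scaled by a median ratio over genes detected in at least 20% of cells on both days, with a pseudocount of 1 scaled CPM. A gene past the detection limit (at least 20% of the cells of either day, in each batch) was called at 2-fold in each batch. There is 1 plate per day, so no test was run. Intervals at 95% are exact Poisson for sums of reads and exact binomial for shares of cells. Cells were thinned to 50000 reads with a fixed seed. The procedure was tested on simulated data. Named genes were the 12 called genes each way with the largest ratio in the batch where it was smaller, leaving out mt- genes, unnamed gene models and genes with over 25% of the higher day's reads in 1 cell, then the called members and first 2 members of each of 35 lists, and Dnmt3a and Dnmt3b. A few genes that this rule names are not reported here. The members, lists and rule were chosen with earlier results of these data known. Alternatives covered cell filters, single batches, scaling (edgeR 4.0.16 TMM, scran 1.30.0), weighting of cells, pseudocount, detection and fold limits. Python 3.11.15, numpy 2.4.6, pandas 2.3.3, scipy 1.17.1 and R 4.3.3 were used. Gene positions, transcript lengths and overlaps came from GENCODE vM21, in which 97.0% of the table's names were found, and promoters from RefSeq.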

Additional observations from a re-analysis of the deposited data

Results flagged for a closer look

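Pim2, a kinase gene of the primed epiblast list, went opposite ways between the days in the wild type and in cells labelled 3BKO, in both batches. Its log2 ratios of day 9 over day 3 were 1.59 and 2.13 in batches 1 and 2 of the wild type and -2.15 and -1.21 under the label 3BKO. The difference was not tested, since each group is 1 sample per day. Dnmt3a levels go against the mutant labels of the day 3 cells of batch 2. The value of -1.21 therefore rests on cells whose label is in doubt.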

How the results depend on the processing

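No paired analysis was possible because there is 1 plate per day and no result comes from a test, and for the same reason no replicate could be left out. Counts of calls followed the limits and the scaling. Batch 1 alone gave 756 higher and 1264 lower genes and batch 2 alone 1232 and 1406, since a single batch had to pass. Scaling by totals gave 533 and 223, a pseudocount of 10 gave 85 and 124, a fold limit of 1.5 gave 864 and 1178, and a fold limit of 4 gave 19 and 29. Detection in 40% of cells gave 143 higher genes. The DNA methylation median was -0.84 in batch 1 alone. In batch 2 alone the medians were -0.70 for ribosome biogenesis, 0.22 for the respiratory chain, 0.72 for the lysosome and 0.75 for MHC and interferon. With scaling by totals they were -0.54, 0.62, 0.80 and 1.16, and -0.43 for core pluripotency. Without mt- genes and Gm42418 in the total the ribosome biogenesis median was -0.67. The MHC and interferon median was 0.72 with a pseudocount of 10 and 0.71 with detection in 10% of cells. Thinning moved the difference in detected genes from -1615 to -1018. The 77 named genes called in the report kept their direction in 1001 of 1001 values under alternatives. Of these values 959 were at least 2-fold, with both batches summed save in the single-batch settings. The genes were chosen for passing 2-fold in each batch, so the single-batch values were fixed by the call. The other settings reuse largely the same cells, so these counts are no independent support. Thinning before summing ended 14 of the 77 calls, Fxyd2, Nanog and Lin28a among them, scaling by totals ended 17, all falls, a pseudocount of 10 ended 27 (12 rises and 15 falls) and detection in 40% of cells ended 22 (14 rises and 8 falls). A fold limit of 4 ended 51. Apart from the effect of each setting's own construction, the cause was not tested.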
